A study of Mus musculus with 12 samples.

Results

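Insulin-stimulated glucose uptake in skeletal muscle was examined through 10 genes: Slc2a4, Slc2a1, Insr, Irs1, Irs2, Pik3r1, Akt2, Tbc1d4, Tbc1d1 and Pak1. They were taken by symbol from 15344 genes measured by RNA-Seq in the quadriceps of 12 mice, and all 10 were found and passed the low-value filter (10 or more normalized counts in any library) in each comparison. Pak1 was included for the difference seen in its level between the KO and WT labels, so its values are a description and carry no test. The other 9 were chosen by pathway, with earlier results of these data known, so a count over them is a description of these 9 genes.

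The study used mice that lack acid alpha-glucosidase (GAA), the lysosomal enzyme that degrades glycogen and is deficient in Pompe disease, and asked how muscle RNA differs in these mice and after gene therapy. All animals had the C57BL/6 background and were 6 months old at harvest, with 4 mice in each of 3 groups. The KO group had the GAA-KO genotype and received PBS. The AAV group had the same GAA-KO genotype and received 2e+12 vg/kg of AAV2/8-LSPhGAApA into the tail vein at 2 months of age, 4 months before harvest, and this vector carries human GAA under a promoter active in the liver, so the muscle was not the intended site of transgene expression. By the labels the WT group received no treatment and the KO group PBS, so genotype and injection cannot be told apart between the KO and WT groups. The sources describe the KO and AAV animals as male and do not give the sex of the WT animals. Values are normalized counts, that is, reads per gene divided by 1 size factor for each library. Total reads were 32299356 to 47379737 in libraries labelled WT, 31225360 to 40846896 in those labelled KO and 22122233 to 31974197 in those labelled AAV.

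The targeted gene went against these labels. Gaa (chr11:119267887-119285454, plus strand, GRCm38) was at 343, 14640.2, 324 and 460.3 normalized counts in WT-labelled animals 1 to 4. It was at 12151, 13075, 11936 and 12895 in the libraries labelled KO, and at 947, 587, 499.6 and 9854 in those labelled AAV. Gaa was thus high in every library labelled KO and low in 3 of the 4 labelled WT. GAA activity and glycogen, which the study assayed in the same quadriceps, were not analysed here, and a count per gene does not show whether the RNA is intact. WT animal 2 and AAV animal 4 stood apart from their groups. Groups are therefore named by their labels, each direction below is a direction between labels, and counts of called genes are also given without those 2 libraries. The markers of skeletal muscle fibres were abundant in all 12 libraries, with Acta1, the actin of adult skeletal muscle, between 719662 and 1753643 normalized counts.

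Insulin binds its receptor, encoded by Insr, which phosphorylates the adaptor proteins Irs1 and Irs2. These recruit phosphoinositide 3-kinase, whose main regulatory subunit is the product of Pik3r1, and the lipid it makes activates the kinase Akt2. Akt2 phosphorylates and so inhibits Tbc1d4 (AS160) and Tbc1d1, which hold back the Rab proteins that move vesicles of the transporter GLUT4, encoded by Slc2a4, to the cell surface. A parallel arm runs through the small GTPase Rac1 and its effector kinase PAK1 to the actin cytoskeleton, while GLUT1, encoded by Slc2a1, carries basal uptake and is present in many other cell types. Much of this control acts on protein phosphorylation and location, which RNA levels do not measure.

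The stretch before the annotated start is shown for the 3 genes whose difference between the KO and WT labels was at least 1 on the log2 scale, Pak1, Slc2a1 and Tbc1d4. The sequences are 200 bases each, from 250 to 51 bases before the start, 5′ to 3′ on the gene's strand, from RefSeq on GRCm38.p6. RefSeq promoter entries were matched for 8 of the 10 genes, and Slc2a4 and Insr had none. Capitals mark, on either strand, the E-box CACGTG, the GC box GGGCGG, the CCAAT box CCAAT and the cAMP response element TGACGTCA, of which the last was added after the Pak1 sequence had been read. The first of these TGACGTCA matches shares 1 base with a CCAAT match, so the capitals there run together.
Pak1 (chr7:97788291-97788490, plus strand): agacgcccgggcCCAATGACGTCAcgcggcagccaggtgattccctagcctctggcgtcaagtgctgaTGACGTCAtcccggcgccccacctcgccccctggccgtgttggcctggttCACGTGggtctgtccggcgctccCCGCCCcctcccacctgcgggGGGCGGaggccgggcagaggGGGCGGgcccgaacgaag
Slc2a1 (chr4:119108495-119108694, plus strand): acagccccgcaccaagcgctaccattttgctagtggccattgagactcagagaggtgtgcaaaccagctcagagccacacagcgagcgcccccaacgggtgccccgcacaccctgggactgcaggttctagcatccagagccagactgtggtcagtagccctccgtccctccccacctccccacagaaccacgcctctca
Tbc1d4 (chr14:101609242-101609441, minus strand): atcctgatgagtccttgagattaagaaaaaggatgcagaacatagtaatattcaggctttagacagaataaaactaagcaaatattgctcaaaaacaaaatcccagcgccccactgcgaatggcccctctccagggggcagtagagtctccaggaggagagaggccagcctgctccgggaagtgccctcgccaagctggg
The Pak1 stretch had a GC content of 73.0%, against a median of 51.5% over 32851 windows of the same kind. It held 3 copies of GGGCGG, 1 of CCAAT at 238 bases before the start, 1 of CACGTG at 132, and 2 of TGACGTCA, at 234 and 182. TGACGTCA was found in 0.828% of all windows, CACGTG in 4.34%, GGGCGG in 24.6% and CCAAT in 28.4%. A second Pak1 entry, whose window lies at chr7:97842689-97842888, held 2 copies of GGGCGG and 1 of CCAAT. The windows of Slc2a1 and Tbc1d4 held none of these letters, at GC contents of 62.5% and 50%. These matches describe the letters in each window and were not set against any binding measurement.

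Between the libraries labelled KO and WT, Insr, Akt2, Tbc1d4 and Slc2a4 were higher in KO and Slc2a1 was lower. These 5 of the 9 genes passed an adjusted p under 0.05 in limma, with 4 higher and 1 lower, against 27.6% of all 14859 genes tested, 12.3% higher and 15.3% lower. The groups did not overlap for 5 of the 9 genes, against 28.3% of all genes. The median difference of the 9 was 0.48 on the log2 scale, and that of all genes tested was 0.02. Without WT animal 2, whose Gaa stood apart, 4 of the 9 passed, against 17.9% of all genes.

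Between the libraries labelled AAV and KO, Insr, Irs1, Akt2 and Tbc1d4 were lower in AAV and Slc2a1 was higher. Again 5 of the 9 passed, with 1 higher and 4 lower, against 26.3% of 14894 genes, 12.8% higher and 13.4% lower. The groups did not overlap for 4 of the 9, against 30.6% of all genes. The median difference of the 9 was -0.59 and that of all genes was 0.04. Without AAV animal 4, 5 of the 9 passed, against 22.1% of all genes. This comparison uses the same KO libraries as the first, so the directions in the pair of comparisons are not independent of each other.

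Between the libraries labelled AAV and WT, 0 of the 9 genes passed in limma, against 1.29% of 14939 genes. Of the 9, 3 had an unadjusted p under 0.05, against 18.2% of all genes. On the reads recovered from the deposited values, edgeR called 0 of the 9, against 1.09% of all genes, and DESeq2 called 1, Irs2, against 6.39%. The groups did not overlap for 1 of the 9, against 11.7% of all genes.

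**Figure D1:**
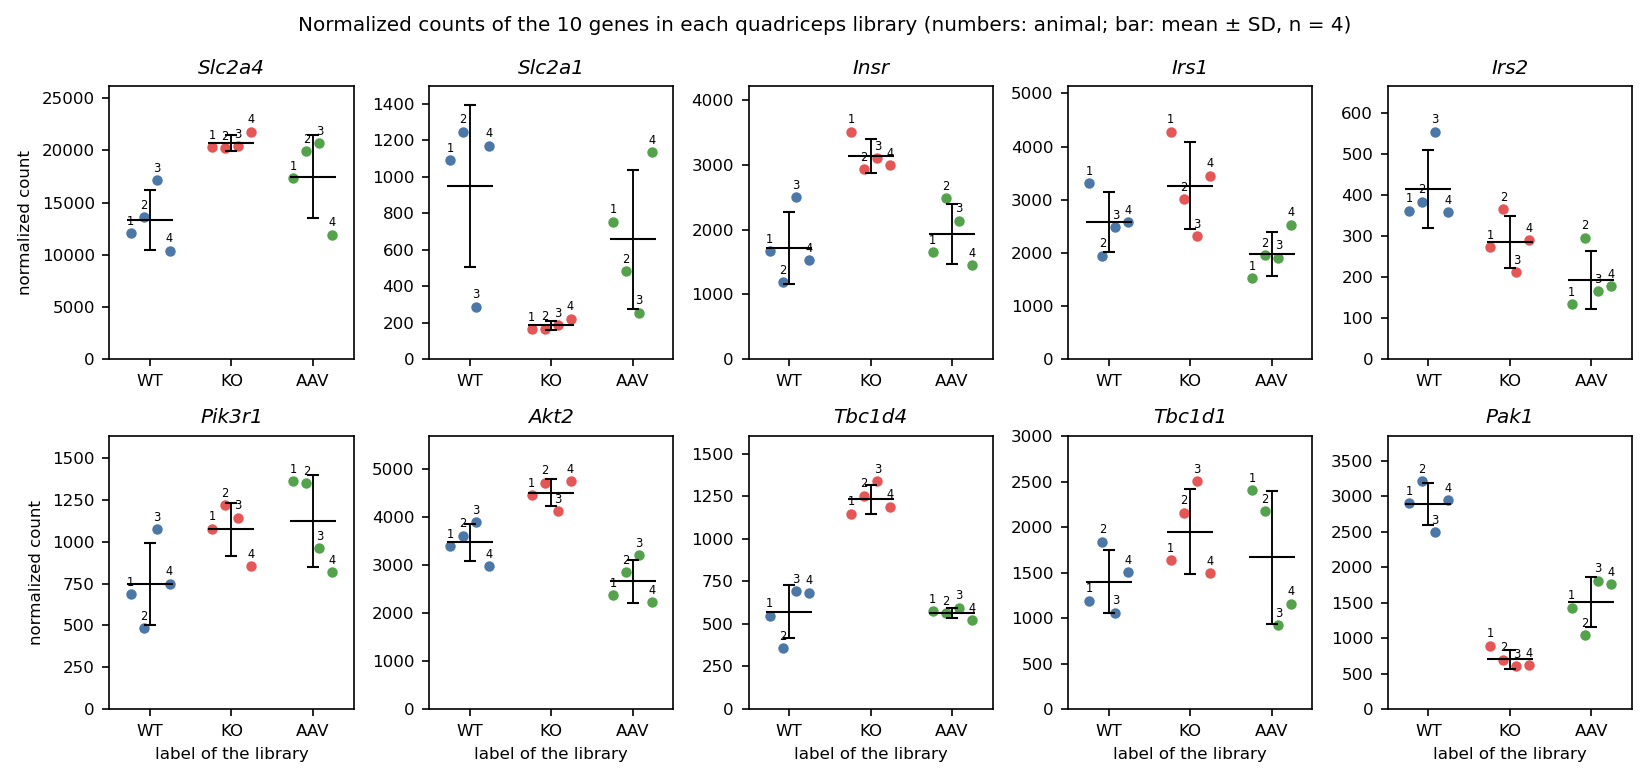
Normalized counts (vertical axes, from 0) of each of the 10 genes in the 12 quadriceps libraries, by label (horizontal axis). Points are animals with their number, and bars are the mean ± SD (n = 4). Pak1 lies at 2501 to 3213 in WT, 605 to 894 in KO and 1044 to 1813 in AAV, and WT animal 3 lies toward the KO points for Slc2a1, Insr and Slc2a4.

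The insulin receptor gene Insr (chr8:3122061-3279617, minus strand) was at 1669, 1185, 2497 and 1525 normalized counts in the libraries labelled WT. It was at 3514, 2937, 3101 and 2993 in those labelled KO, and at 1651, 2491, 2138 and 1453 in those labelled AAV. Every KO value lay above every WT and AAV value, and WT animal 3 was the closest WT library to the KO group. Insr was 1.82-fold higher in KO than in WT, with a log2 difference of 0.92 (SE 0.20, adjusted p = 0.0108). It fell from KO to AAV by 0.73 on the log2 scale (SE 0.17, adjusted p = 0.0143). The AAV and WT groups overlapped, with a log2 difference of 0.19 (adjusted p = 0.708).

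Of the 2 receptor substrate genes, Irs1 passed between AAV and KO, and Irs2 passed in none of the 3 comparisons in the main limma test, though in each of them it passed in 2 of 18 alternatives. Irs1 (chr1:82233101-82291416, minus strand) was at 3312, 1949, 2484 and 2584 in WT, at 4284, 3018, 2314 and 3451 in KO, and at 1531, 1956, 1912 and 2535 in AAV. The WT and KO values overlapped, and AAV animal 4 overlapped the lowest KO library. The log2 difference was 0.33 between KO and WT (adjusted p = 0.254) and -0.71 between AAV and KO (SE 0.20, adjusted p = 0.0300). The second of these passed in 10 of 18 alternative analyses and missed the threshold in the other 8, in which the adjusted p reached 0.0869.

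Irs2 (chr8:10984681-11008458, minus strand) was at 362, 384, 554 and 358 in WT, at 272, 366, 212 and 289 in KO, and at 134, 296, 167 and 178 in AAV. All 4 AAV values lay below all 4 WT values, and the KO values overlapped both groups. The log2 difference between AAV and WT was -1.13 (SE 0.26), which did not pass in limma over those 8 libraries (adjusted p = 0.0638). The same difference passed in DESeq2 (adjusted p = 0.00565) and with all 12 libraries in one limma fit (adjusted p = 0.0193). Against WT, Irs2 in KO differed by -0.54 (adjusted p = 0.0716), and AAV against KO by -0.59 (adjusted p = 0.103). Over the alternatives the lowest adjusted p of these was 0.0272 and 0.0240.

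Per kilobase of exon, Irs1 exceeded Irs2 in each of the 12 libraries. The ratio of Irs1 to Irs2 was 6.33, 3.51, 3.10 and 4.99 in WT, 10.9, 5.70, 7.54 and 8.25 in KO, and 7.92, 4.57, 7.94 and 9.84 in AAV. WT animal 1 lay above KO animal 2, so the groups overlapped. These ratios were not tested.

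Pik3r1 (chr13:101680563-101768217, minus strand) was at 689, 484, 1075 and 751 in WT, at 1078, 1219, 1145 and 854 in KO, and at 1362, 1349, 963 and 820.4 in AAV. WT animal 3 lay among the KO values and the other 3 WT libraries lay below all of them. The log2 difference was 0.56 between KO and WT (adjusted p = 0.0852), 0.04 between AAV and KO (adjusted p = 0.872) and 0.61 between AAV and WT (adjusted p = 0.255). Without WT animal 3 the first was 0.76 (adjusted p = 0.00559), so this 1 library decided whether it passed.

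Akt2 (chr7:27591552-27640826, plus strand) was at 3401, 3619, 3903 and 2983 in WT, at 4457, 4724, 4132 and 4748 in KO, and at 2380.2, 2851, 3210.0 and 2225 in AAV. The KO values lay above all the others, and AAV animal 3 overlapped the lowest WT library. The difference of KO from WT was 1.30-fold, or 0.38 on the log2 scale (SE 0.12, adjusted p = 0.0377). It passed in 8 of 18 alternative analyses. It was lost in the other 10, among them the removal of WT animal 1, 2 or 4 or of any KO animal. The removal of WT animal 2 counts again there, as the fit without the 2 libraries whose Gaa stood apart. The 10 also held a correction for gene length (adjusted p = 0.175) and the replicate block (adjusted p = 0.0959). From KO to AAV Akt2 fell by 0.77 (SE 0.13, adjusted p = 0.00531), and this passed in all 18 alternatives. The AAV mean was below the WT mean by 0.39, which did not pass (adjusted p = 0.236).

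Tbc1d4 (chr14:101442360-101609191, minus strand) separated KO from both other groups. It was at 549, 358, 694 and 683 in WT, at 1147, 1253, 1337 and 1187 in KO, and at 573, 564, 595 and 522 in AAV. The lowest KO library was above the highest WT and AAV libraries, and the AAV values lay within the WT range. Tbc1d4 was 2.16-fold higher in KO than in WT, a log2 difference of 1.15 (SE 0.20, adjusted p = 0.00446), and fell from KO to AAV by 1.12 (SE 0.10, adjusted p = 0.000196). Between AAV and WT the log2 difference was 0.03 (SE 0.21, adjusted p = 0.961). Both KO differences passed in all 18 alternatives.

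Its paralog Tbc1d1 (chr5:64156305-64351486, plus strand) was at 1194, 1843, 1062 and 1507 in WT, at 1643, 2160.1, 2506 and 1494 in KO, and at 2412, 2177, 924 and 1161 in AAV. The 3 groups overlapped. The log2 difference was 0.48 between KO and WT (adjusted p = 0.115), -0.31 between AAV and KO (adjusted p = 0.463) and 0.17 between AAV and WT (adjusted p = 0.803). AAV animals 1 and 2 were high and AAV animals 3 and 4 were low, giving a coefficient of variation of 44.1% in AAV, against 5.43% for Tbc1d4 in the same libraries. Per kilobase, the ratio of Tbc1d4 to Tbc1d1 was 0.187 to 0.630 in WT, 0.515 to 0.767 in KO and 0.229 to 0.622 in AAV, so Tbc1d1 was the higher of the pair in all 12 libraries and the groups overlapped.

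The GLUT4 gene Slc2a4 (chr11:69942539-69948188, minus strand) was at 12092, 13628, 17167 and 10387 in WT, at 20314, 20199.7, 20422 and 21797 in KO, and at 17327, 19946, 20666 and 11940.2 in AAV. The KO values were close together, with a coefficient of variation of 3.62% against 21.7% in WT and 22.6% in AAV. WT animal 3 was the highest of WT but below all KO values. AAV animal 3 lay among the KO values, and AAV animal 4 lay among the WT values. Slc2a4 was 1.55-fold higher in KO than in WT, a log2 difference of 0.66 (SE 0.16, adjusted p = 0.0141). The log2 difference was -0.27 between AAV and KO (adjusted p = 0.251) and 0.38 between AAV and WT (adjusted p = 0.382).

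The GLUT1 gene Slc2a1 (chr4:119108711-119137983, plus strand) had the largest log2 difference of the 9 tested genes in both comparisons with KO. It was at 1093, 1249, 289 and 1171 in WT, at 166, 168, 186 and 223 in KO, and at 754, 482, 255 and 1137 in AAV. All KO values lay below all WT and AAV values. WT animal 3 was far below the rest of WT, and the AAV values were spread from near the KO range to the WT range. Slc2a1 was 5.11-fold lower in KO than in WT, a log2 difference of -2.15 (SE 0.41, adjusted p = 0.00645). It was 3.54-fold higher in AAV than in KO, a log2 difference of 1.62 (SE 0.38, adjusted p = 0.0152), and differed by -0.53 between AAV and WT (adjusted p = 0.626). Without WT animal 3 the first was -2.66 (adjusted p = 6.98e-07).

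Macrophages also carry GLUT1, and their markers were lower in KO than in WT, as Slc2a1 was, but their sum overlapped between AAV and KO. The summed level of the 5 markers was 1031 to 3281 in WT, 529.6 to 1010.5 in KO and 531 to 2617 in AAV. WT animal 3 was the lowest of WT and AAV animal 4 the highest of AAV in both the sum and Slc2a1. AAV animals 2 and 3 had sums of 916 and 531, inside the KO range, and AAV animal 1 had 1014, just above it, while the Slc2a1 of all 3 lay above the KO range. KO animal 4 had the highest Slc2a1 of KO and the lowest sum. Of these markers, 3 of 5 were lower in KO than in WT and 0 of 5 were higher, against 15.3% and 12.3% of all genes. In AAV against KO 0 of 5 passed in limma, against 26.3% of all genes. There 1 had an unadjusted p under 0.05, and edgeR and DESeq2 called 1 each. The lysosomal protein gene Cd68 was at 560.1, 590.0, 69.8 and 568 in WT, 28.2 to 36.7 in KO, and 127, 74.5, 35.4 and 415 in AAV. Lyz2, which encodes lysozyme, was at 1923, 1721, 634 and 2097 in WT, 286 to 505 in KO, and 475, 534, 274 and 1572 in AAV. Endothelial cells are another source of GLUT1. The summed level of their markers was 1683 to 4776 in WT, 3835 to 5202 in KO and 3231 to 5427 in AAV. In limma 2 of 6 were higher and 0 were lower in KO than in WT, against 12.3% and 15.3% of all genes. For these 6, edgeR called 1 and DESeq2 called 2. The part of these cells in the Slc2a1 difference was not tested. In bulk muscle, fewer cells of a type and less RNA per cell cannot be told apart.

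**Figure D2:**
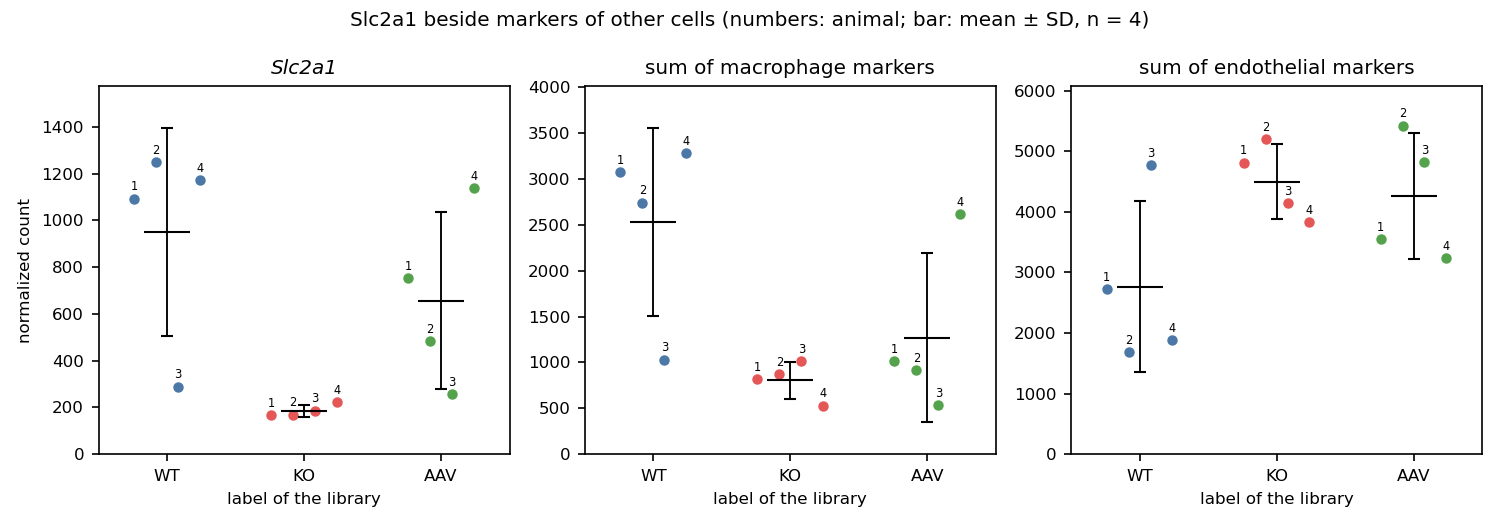
Normalized counts (vertical axes, from 0) of Slc2a1, of the sum of 5 macrophage markers and of the sum of 6 endothelial markers in the 12 libraries, by label. Points are animals with their number and bars are the mean ± SD (n = 4). WT animal 3 is lowest of its group for Slc2a1 (289) and for the macrophage sum (1031), and highest of its group for the endothelial sum (4776).

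The levels of the 2 transporters per kilobase of exon were also set against each other within each library, which restates the values above as a description. Slc2a4 exceeded Slc2a1 by 11.2, 11, 59.9 and 8.94 times in WT and by 98.6 to 123 times in KO. In AAV the ratio was 23.2, 41.7, 81.7 and 10.6. The KO libraries lay above all the others, and animal 3 was the highest in both WT and AAV.

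Pak1 (chr7:97788541-97912381, plus strand) was at 2904, 3213, 2501 and 2945 in WT, at 894, 696, 605 and 622 in KO, and at 1432, 1044, 1813 and 1760.2 in AAV. The 3 groups did not overlap one another. The mean was 2891 ± 294 in WT, 704 ± 132 in KO and 1512 ± 355 in AAV (SD, n = 4), so KO was 4.10-fold lower than WT and AAV was 2.15-fold higher than KO. The log2 differences were -2.05 (SE 0.15), 1.09 (SE 0.19) and, for AAV against WT, -0.96 (SE 0.19). The AAV mean lay at 53.0% of the distance from KO to WT on the log2 scale. Over 18 alternatives the difference between KO and WT lay between -2.17 and -1.98, and that between AAV and KO between 0.99 and 1.25. Leaving out WT animal 2 and AAV animal 4 gave -1.99 and 1.0.

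**Figure D3:**
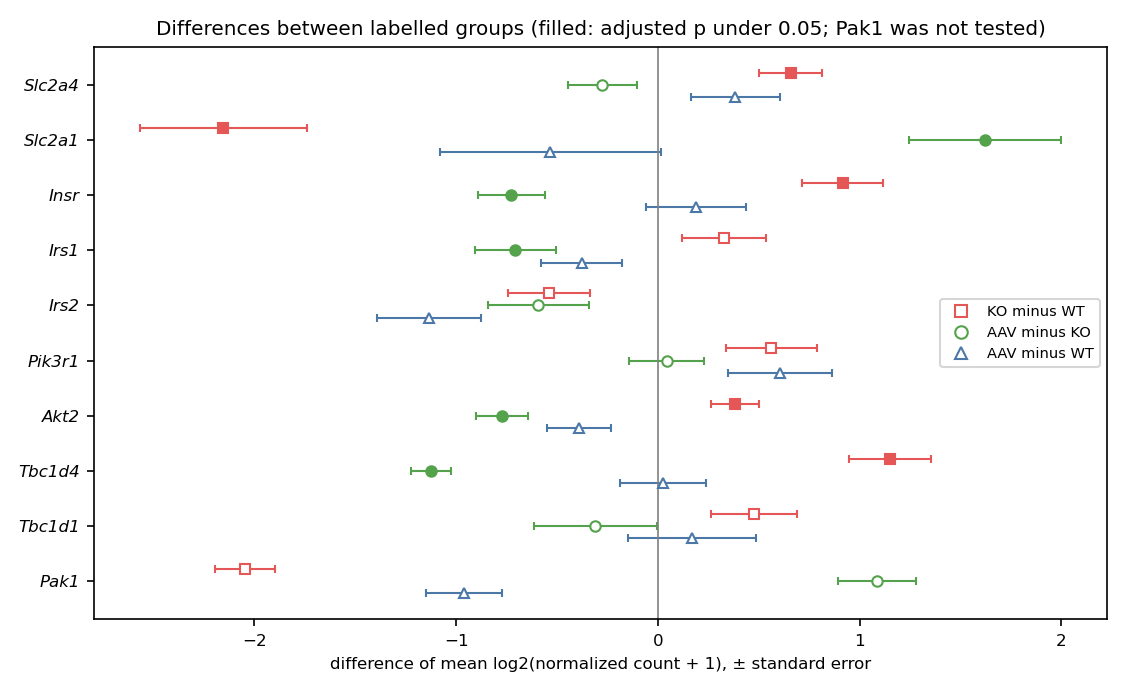
Differences of the mean log2(normalized count + 1) of the 10 genes (horizontal axis) between labels, with bars of 1 standard error. Filled marks have an adjusted p under 0.05 in limma, and Pak1 was not tested. Slc2a1 (-2.15) and Pak1 (-2.05) lie far to the left in KO minus WT, and Tbc1d4 lies at 1.15 in KO minus WT and at -1.12 in AAV minus KO.

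The level of Pak1 was also set against the closely related kinase gene Pak2 within each library. Per kilobase of exon, Pak1 exceeded Pak2 by 5.13, 9.22, 4.42 and 5.25 times in WT, by 1.56, 1.27, 1.18 and 1.23 times in KO, and by 2.81, 1.98, 3.49 and 3.10 times in AAV. This ratio carries the same Pak1 values and is a description, not a further measure of them.

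**Figure D4:**
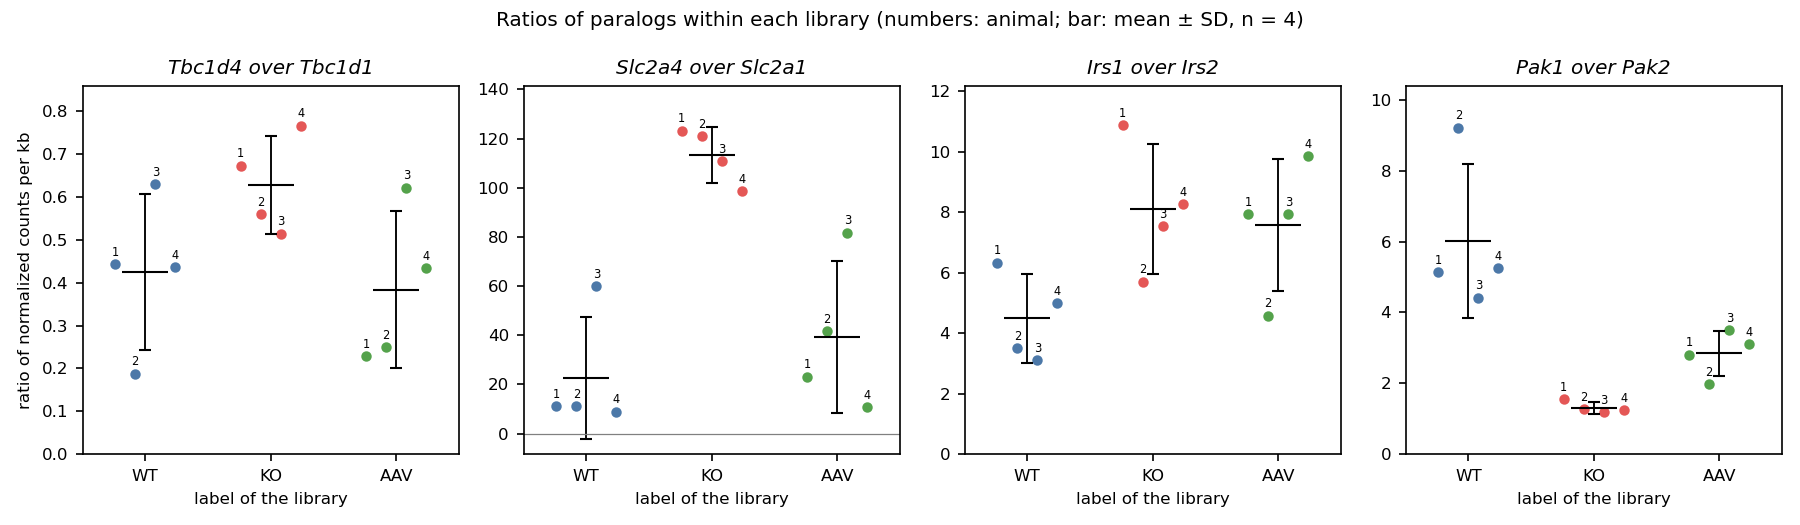
Ratios of normalized counts per kilobase of exon (vertical axes) for 4 pairs of genes within each library, by label. Points are animals with their number and bars are the mean ± SD (n = 4). The ratio of Pak1 to Pak2 lies at 4.42 to 9.22 in WT, 1.18 to 1.56 in KO and 1.98 to 3.49 in AAV.

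Among the 10 genes, levels per kilobase of exon put Slc2a4 first and Irs2 last in each labelled group. In WT the order was Slc2a4 (3829 normalized counts per kilobase), Pak1 (733), Akt2 (488), Irs1 (282), Slc2a1 (271), Tbc1d1 (189), Insr (125), Tbc1d4 (74.4), Pik3r1 (74.4) and Irs2 (65.6). From Irs1 down, each gene's values overlapped those of the next. In KO, Pak1 fell to rank 6 (179), overlapping Insr above and Tbc1d4 below, and Slc2a1 to rank 9 (53.0), overlapping Irs2. In AAV, Pak1 was again at rank 2 (384), overlapping Akt2 (374).

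The genes whose pattern over the 12 libraries was most like that of Pak1, by Pearson's r of log2(normalized count + 1) among 11071 genes with a mean of at least 50, were Rbm45 (r = 0.975), Gm16124 (0.963), Cobl (0.959), Hectd3 (0.959) and Txnl4a (0.957). The 12 libraries include the group differences, so these r values describe the shared pattern of the groups and carry no test. Rbm45, an RNA-binding protein gene, was at 291 to 357 in WT, 193 to 212 in KO and 238 to 301 in AAV. Cobl, which encodes an actin nucleator, was at 2454 to 3503, 1259.5 to 1507 and 1881 to 2090.4 in the same order.

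The libraries within a group lay at unequal distances from the KO mean, which describes their position and is not a measure of spread. WT animal 3 was the WT library nearest to the KO mean for 7 of the 10 genes (Slc2a4, Slc2a1, Insr, Pik3r1, Akt2, Tbc1d4 and Pak1), and WT animal 2 was the farthest for 6. In AAV, animal 3 was nearest to the KO mean for 5 genes and animal 4 was the farthest for 6. Without WT animal 3, limma called 7163 genes between KO and WT, against 4097 with it, and 6 of the 9 genes passed. Without any 1 of the other 7 libraries the count of genes lay between 2353 and 2844.

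Another 93 genes of the pathway were taken from 6 lists, of which 91 were in the tables. Between KO and WT, 29 of the 91 passed, 17 higher and 12 lower, a share of 31.9% against 27.6% of all genes. Their median log2 difference was 0.03 and that of all genes 0.02. In AAV against KO, 29 passed, 7 higher and 22 lower, a share of 31.9% against 26.3%. This became 19 without KO animal 1, where all genes called fell from 3910 to 2005. It was also 19 without AAV animal 1, with 2218 of all genes called, and 17 without KO animal 4, with 1961. Between AAV and WT 0 of 91 passed in limma, against 1.29% of all genes, and 15 had an unadjusted p under 0.05, against 18.2%. There edgeR called 0 and DESeq2 called 3, against the 1.09% and 6.39% of all genes that they called. Without WT animal 3 the count between KO and WT was 49 of the 91, against 48.4% of all genes. Without any 1 of the other 7 libraries it was 14 to 17, while all genes called fell to between 2353 and 2844. For WT animal 2 it was 15 of the 91, against 17.9% of all genes. The 23 pathway genes named below were chosen for a low adjusted p between KO and WT with all 8 libraries. Fits that leave out 1 library share the rest, so passing again is partly set by that choice. Of the 23, 13 passed in every such fit. The other 10 did not: Gsk3b, Akt1, Vav2, Git2, Ralgapb, Hk1, Hk2, Prkab2, Cab39 and Prkag3.

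Of 17 other genes of the receptor and PI3K-Akt arm, 3 were higher and 1 was lower in KO than in WT, and 13 did not pass, a share of 23.5% called against 27.6% of all genes. Rictor, a subunit of the mTORC2 complex that phosphorylates Akt, was at 208 to 498 in WT, 634 to 963 in KO and 264 to 542 in AAV, a log2 difference of 1.46 between KO and WT (SE 0.26, adjusted p = 0.00462) and of -0.98 between AAV and KO (adjusted p = 0.0149). Pik3r3, another regulatory subunit of PI3K, was higher by 0.81 (adjusted p = 0.00685), with 144 to 208 in WT and 285 to 349 in KO. The glycogen synthase kinase gene Gsk3b was also higher by 0.81 (adjusted p = 0.0266), with WT animal 3 at 2897 inside the KO range of 2870.4 to 3419. Akt1 was lower by 0.59 (log2 difference -0.59, adjusted p = 0.0316), opposite in direction to Akt2. In AAV against KO, 0 of these 17 were higher and 5 were lower, 29.4% against 26.3% of all genes.

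Of 13 genes that restrain insulin signalling, 3 were higher and 4 were lower in KO than in WT, 53.8% called against 27.6% of all genes. Socs3, a cytokine-induced inhibitor of receptor signalling, was at 518 to 833 in WT and 62.4 to 165 in KO, a log2 difference of -2.74 (SE 0.30, adjusted p = 0.000584). In AAV it was at 518, 401, 44.9 and 418, so AAV animal 3 lay below the KO range while the others lay above it. The log2 difference from KO was 1.35 (adjusted p = 0.164), or 2.17 without AAV animal 3 (adjusted p = 0.00195). The lipid phosphatase gene Inppl1 was lower by 0.65 in KO (log2 difference -0.65, adjusted p = 0.00803). The receptor-binding adaptors Grb14 and Grb10 differed in opposite directions, Grb14 by -0.93 (adjusted p = 0.0110) and Grb10 by 0.55 (adjusted p = 0.0144). Of the 13, 1 was higher and 3 were lower in AAV than in KO, 30.8% against 26.3%.

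Of 18 measured genes of the Rac1 and PAK arm, 2 were higher and 3 were lower in KO than in WT, 27.8% called against 27.6% of all genes. Tiam1, a guanine nucleotide exchange factor that activates Rac1, was at 20.8, 12.8, 206 and 29.3 in WT, at 379, 866, 844 and 1020.4 in KO, and at 17.9, 76.5, 93.3 and 23.9 in AAV. All KO values lay above all the others. The log2 difference was 4.30 between KO and WT (SE 0.72, adjusted p = 0.00390) and -4.08 between AAV and KO (SE 0.52, adjusted p = 0.00179). Without WT animal 3 the first was 5.13 (SE 0.35). Vav2, another exchange factor for Rac1, was lower in KO by 0.81 (log2 difference -0.81, adjusted p = 0.0224). The small GTPase gene Rala differed by -0.51 (adjusted p = 0.0127), and Git2, whose product binds the PAK partner PIX, by 0.39 (adjusted p = 0.0413). Of the 18, 2 were higher and 2 were lower in AAV than in KO, 22.2% against 26.3%.

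Of 22 genes of GLUT4 vesicle traffic, 4 were higher and 2 were lower in KO than in WT, 27.3% called against 27.6% of all genes. Exoc7, a subunit of the exocyst that tethers vesicles, was at 903 to 1348 in WT, 2359 to 4515 in KO and 751 to 1012 in AAV. Its log2 difference was 1.63 between KO and WT (SE 0.20, adjusted p = 0.000982) and -1.89 between AAV and KO (SE 0.19, adjusted p = 0.000426). Sort1, the sorting receptor sortilin of GLUT4 vesicles, was higher by 0.73 in KO (adjusted p = 0.00556). Rab13, a Rab protein regulated by Tbc1d4, was lower, at 288 to 409 in KO against 520.3 to 1933 in WT (log2 difference -1.85, adjusted p = 0.00608). Ralgapb, a subunit of the complex that turns off Ral, was higher by 0.71 (adjusted p = 0.0291). Of the 22, 2 were higher and 8 were lower in AAV than in KO, 45.5% against 26.3%.

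Of 10 measured genes for other glucose transporters and hexokinases, 2 were higher and 1 was lower in KO than in WT, 30.0% called against 27.6% of all genes. The transporter gene Slc2a3 was at 97.7, 85.0, 280.0 and 80.9 in WT, at 463 to 694 in KO, and at 61.5 to 433 in AAV, a log2 difference of 2.36 between KO and WT (SE 0.36, adjusted p = 0.00262). Hk1, the hexokinase of most tissues, was at 1643, 1770.0, 243 and 1457 in WT, at 179 to 263 in KO, and at 599.5, 338, 306 and 1631 in AAV, with a log2 difference of -2.21 between KO and WT (SE 0.55, adjusted p = 0.0171), or -2.89 without WT animal 3. WT animal 3 lay within the KO range for Hk1 and was the lowest of WT, as for Slc2a1. Hk2, the main hexokinase of skeletal muscle, was higher by 0.59 in KO (adjusted p = 0.0187) and remained at 14829 to 22028 in AAV. Between AAV and KO, 1 of the 10 was higher and 1 was lower, against 26.3% of all genes called.

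Of 11 genes of the AMPK arm, which signals energy shortage and also acts on Tbc1d1, 3 were higher and 1 was lower in KO than in WT, 36.4% called against 27.6% of all genes. Among the regulatory subunits, Prkag2 was lower (log2 difference -1.53, adjusted p = 0.00520), while Prkab2 (1.06, adjusted p = 0.0232) and the muscle subunit Prkag3 (0.78, adjusted p = 0.0337) were higher. Cab39, a partner of the upstream kinase LKB1, was higher by 0.80 (adjusted p = 0.0292). WT animal 3 was within the KO range for Prkab2 and Cab39. Between AAV and KO, 1 of the 11 was higher and 3 were lower, 36.4% against 26.3%.

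**Figure D5:**
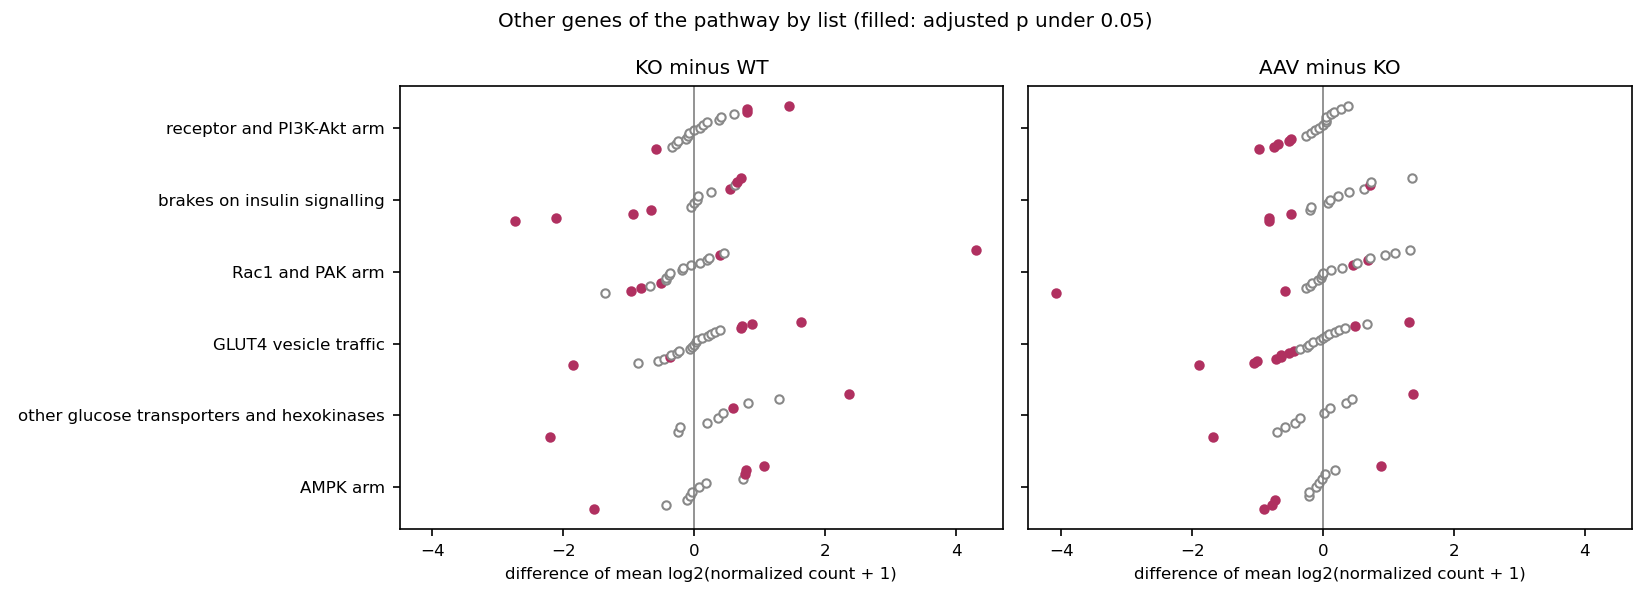
Differences of the mean log2(normalized count + 1) for the 91 measured pathway genes outside the 10, by list, for KO minus WT (left) and AAV minus KO (right). Each point is a gene and filled points have an adjusted p under 0.05 in limma. Tiam1 is the farthest point in both panels, at 4.30 and -4.08.

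Markers of fibre type also differed between the labels, and fibre types differ in their insulin response. The summed level of 8 slow fibre markers was 4451 to 8605 in WT, 1361 to 1643 in KO and 4080.1 to 25507 in AAV. All 8 were lower in KO than in WT, against 15.3% of all genes. In AAV 7 of 8 were higher than in KO, against 12.8% of all genes. The fast 2B myosin Myh4 was at 914021 to 1293965 in WT, 1722781 to 2213291 in KO and 871578 to 1645114 in AAV, with a log2 difference of 0.73 between KO and WT (adjusted p = 0.0487). The 2A myosin Myh2 and the 2X myosin Myh1 were lower in KO by 1.89 and 1.36 (log2 differences -1.89 and -1.36, adjusted p = 0.0450 and 0.0182). The part of fibre type in the differences of the 10 genes was not tested.

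Of the 7 adipocyte markers, 0 passed between KO and WT in limma, against 27.6% of all genes. Of them 1 had an unadjusted p under 0.05, and edgeR and DESeq2 called 1 each. Their sum was 3356 to 8233 in WT, 4857 to 16927 in KO and 7047 to 10822 in AAV. Adipocytes also express GLUT4, and KO animal 3 had the highest adipocyte sum while its Slc2a4, at 20422, lay between the other KO libraries, which ran from 20199.7 to 21797. The part of adipocytes in the Slc2a4 difference was not tested.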

How the data were processed

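The data were RNA-Seq of quadriceps, with 12 mice grouped by GEO's labels into 3 groups of 4. The authors trimmed reads with Trim Galore 0.4.1, keeping reads of at least 20 nt, mapped them with STAR to GRCm38, dropped reads with several locations, used HTSeq 0.6.1 for gene counts and divided each library by 1 size factor from DESeq2 1.16.1. The deposited values are therefore a normalized signal, not raw counts. In all 12 libraries 100% of the low values were whole multiples of 1 step, within a tolerance of 0.01, and gave whole reads. The 2 deposited tables repeat the KO libraries with a difference of 0, so AAV and WT could be compared. Their columns of fold changes, test statistics and p-values were not used, and 0 columns of per-sample values were left out. Whether counting used strand is not given in the sources used here.

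As the values are not counts, limma 3.58.1 with a trend on log2(value + 1) was the test, 2-sided, over genes that reached 10 in some library of the 8 in a comparison. P-values were adjusted by Benjamini-Hochberg over all genes tested, with a threshold of 0.05, and log2 differences understate changes of low genes. The code was tested on simulated data with known changes. Alternatives were edgeR 4.0.16 and DESeq2 1.42.0 on the recovered reads, scaling by total reads, no filter, a pseudocount of 0.1, all 12 libraries in one fit, a replicate block, leaving out each library, leaving out the 2 libraries whose Gaa stood apart, and corrections for gene length and GC content. Coordinates, exon lengths and strands came from GENCODE M21 on GRCm38.

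The 10 genes and all lists were chosen with earlier results of these data known. Named besides the 10 were Gaa, up to 4 genes per pathway list with the lowest adjusted p under 0.05 in KO against WT, up to 2 per list by the same rule in AAV against WT (0 qualified), the 5 genes most like Pak1, and the 2 most abundant genes per marker list, given where a result touches them. Pak2 served as a reference for Pak1. The pathway lists held 93 genes in 6 lists. Lists of markers covered muscle fibres and their types, adipocytes, endothelium, macrophages, fibroblasts, Schwann cells and erythroid cells.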

Additional observations from a re-analysis of the deposited data

Results flagged for a closer look

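In 99 groups of 4 libraries, from the 10 genes and the named pathway genes, the sample at one end was compared with its nearest neighbour relative to the range of the group. In 9 groups the gap exceeded Dixon's critical value for 4 samples, where chance gives about 1 in 20 groups. Of the 10 genes' own 30 groups, 3 did so.

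WT animal 3 stood apart for Slc2a1, at 289 normalized counts against 1093 to 1249 in the rest of WT, and for Irs2, at 554 against 358 to 384. The same library stood apart for Tiam1, at 206 against 12.8 to 29.3, and for Slc2a3, at 280.0 against 80.9 to 97.7. KO animal 4 was high for Slc2a4, at 21797 against 20199.7 to 20422. It was also high for Prkab2 (23748), Cab39 (8427) and Prkag3 (7928). AAV animal 3 was high for Sort1, at 3709.5 against 2628 to 2791. Between KO and WT, leaving out WT animal 3 gave log2 differences of -2.66 for Slc2a1, -0.39 for Irs2, 5.13 for Tiam1 and 2.78 for Slc2a3, on the same side of the threshold as with it. Leaving out KO animal 4 gave 0.63 for Slc2a4, which still passed (adjusted p = 0.0424). It gave 0.99 for Prkab2, 0.76 for Cab39 and 0.60 for Prkag3, which no longer passed (adjusted p = 0.0626, 0.0731 and 0.0826 in limma). Sort1 differed by -1.16 between AAV and KO without AAV animal 3.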

How the results depend on the processing

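Of the 30 differences of the 10 genes, none that passed changed sign in the 18 alternatives, and 8 changes of sign were among differences that passed in neither setting. Genes called between KO and WT numbered 4097, and 2353 to 7163 when 1 library was left out (7163 without WT animal 3). The count was 2636 without the 2 libraries whose Gaa stood apart, here only WT animal 2, and 3062 with the replicate block. Same-numbered libraries come from different animals. Their deviations correlated at -0.1146 to 0.0253 between KO and WT, at -0.1759 to 0.0618 between AAV and KO, and at -0.0732, -0.3547, 0.5535 and 0.4781 for animals 1 to 4 between AAV and WT. In AAV against WT animals 3 and 4 correlated best with their own number and animals 1 and 2 did not. In AAV against KO only animal 2 did. The replicate block pairs libraries by number, and what these correlations reflect was not tested. Genes called between AAV and KO numbered 3910, 1961 to 5071 with 1 library left out, 2612 with all 12 libraries in one fit and 2179 with the replicate block. Between AAV and WT there were 193, 18 to 442 with 1 library left out, 935 in DESeq2, 318 scaled by total reads, 127 with no filter, 892 with all 12 libraries in one fit, 123 corrected for length and 10 without the 2 libraries. Of the 9 genes, 4 to 6 passed between KO and WT and 4 to 6 between AAV and KO over the alternatives, with 4 in each under the replicate block. Between AAV and WT 1 passed in DESeq2 and with all 12 libraries in one fit, and 0 otherwise. Of the pathway genes between KO and WT, 29 passed, 14 to 49 with 1 library left out (15 without WT animal 2) and 20 with the replicate block. Between AAV and KO 29 passed, 17 to 37 with 1 library left out, 19 with all 12 libraries in one fit and 21 with the replicate block. Between AAV and WT 0 passed, 0 to 1 with 1 library left out, 3 in DESeq2 and with all 12 libraries in one fit, 1 scaled by total reads and 1 corrected for GC content. Of the 23 named pathway genes, 8 no longer passed between KO and WT without WT animal 2. The cause of these shifts was not tested. Groups of 4 leave single libraries able to move a call, and the p-values cover only the spread between these animals.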

Other observations

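The other marker lists gave these values. The summed level of 5 fibroblast markers was 12423 to 21399 in WT, 12115 to 18321 in KO and 9886 to 25932 in AAV, and that of 4 Schwann cell markers was 926 to 2169, 1413 to 2381 and 1157 to 3499.6. Between KO and WT, 0 of either list passed in limma, against 27.6% of all genes. In each list 1 gene had an unadjusted p under 0.05, and 1 fibroblast marker was called by edgeR and by DESeq2. The 3 erythroid markers found summed to 327 to 406 in WT, 35.9 to 387 in KO and 363 to 1028 in AAV. Of the 3, 2 were higher in AAV than in KO, against 12.8% of all genes. The 6 markers of skeletal muscle fibres summed to 4426090.3 to 5804125 in WT, 5149697 to 5996310.4 in KO and 3579369 to 5812292 in AAV. Of these 6, 1 was higher and 1 was lower in KO than in WT, against 12.3% and 15.3% of all genes. Myh4 was the higher one. Des, which encodes the intermediate filament desmin, was lower (log2 difference -1.03, adjusted p = 0.00874), and was higher in AAV than in KO (0.72, adjusted p = 0.0267). Des was named after its values were seen.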
